A study of Arabidopsis thaliana with 12 samples.

Results

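SLY1 (AT4G24210), SLY2 (AT5G48170) and SPY (AT3G11540) are 3 Arabidopsis regulators of the DELLA proteins, the repressors through which gibberellin acts. They were followed through 1 probe set each, taken wherever the platform annotation gives a probe set to exactly 1 of these genes. That makes 3 of 22746 probe sets, controls aside, and 3 of the 13356 genes that a probe set names alone. A probe set annotated ATSLY1 belongs to a different gene with a similar symbol and was not counted. The study measured transcripts in Arabidopsis thaliana seeds on 12 single-colour Affymetrix arrays labelled with biotin. All seeds had the Ler genetic background and came from stock N3742, and no further genotype is given in the sources used here. They were incubated for 3, 6 or 9 h in water or in 5 µM gibberellin, whose form is not given. Each of these 6 groups has an array A and an array B. The labels do not say whether A and B are separate batches of seeds, so p-values measure the spread between arrays, which may be technical.

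Gibberellin is bound by the GID1 receptors, and the loaded receptor then grips a DELLA protein. SLY1 is the F-box subunit of an SCF ubiquitin ligase: it recognises the gripped DELLA and has it tagged for destruction. SLY2, also called SNEEZY, is a related F-box protein that can partly stand in for SLY1 when it is overproduced. SPY carries tetratricopeptide repeats and transfers O-linked fucose to DELLA proteins, which strengthens their repression. Seeds of sly1 mutants are strongly dormant, and spy mutants germinate when gibberellin is scarce. SLY1 and SPY thus act in opposite directions on the gibberellin response.

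The arrays carried MAS5 signals, intensities that had been scaled so that the trimmed mean of every array is 100. A probe set was tested when at least 2 arrays exceeded a signal of 16, which 15766 (69.3%) did, all 3 regulators among them. On 4 arrays, the A arrays of both treatments at 3 h and 6 h, signals topped out at 3308 to 3787, against 6511 to 9143 on the remaining 8. Both kinds hold as many water as gibberellin arrays. Of 17 seed marker genes, 1 has a probe set naming it alone, the oleosin gene AT3G01570, with signals of 918.3 to 4498. Of 9 green-leaf markers only RCA has such a probe set, at 133 to 485, so the tissue could be checked against 1 marker on each side only.

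SPY was the brightest of the regulators and SLY2 the faintest. The mean log2 signal of SPY lay at the 93.9th percentile of all probe sets, that of SLY1 at the 84.2nd and that of SLY2 at the 48.3rd. SPY signals ran from 333 to 643 over the 12 arrays and SLY1 signals from 93.3 to 309. Those of SLY2 ran from 11.9 to 41.1 and exceeded the brightness limit on 11 of 12 arrays. Signals of different probe sets are not levels on a common scale, and no order of abundance between the genes follows from them.

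**Figure D1:**
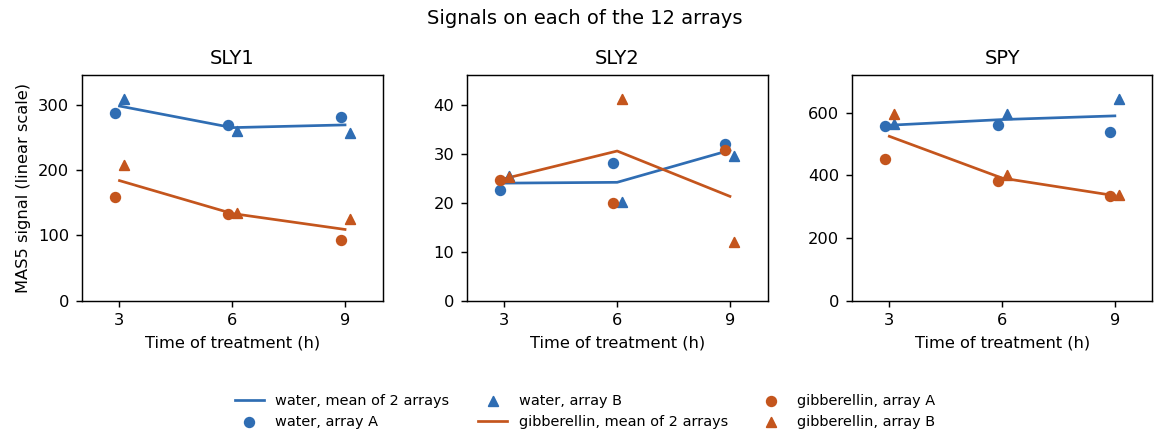
MAS5 signal (linear axis from 0) of SLY1, SLY2 and SPY against hours of treatment, with circles for A arrays, triangles for B arrays and lines through the means of 2 arrays. In SLY1 the 6 gibberellin arrays lie at or below 209 and the 6 water arrays at or above 258; in SLY2 the treatments overlap; in SPY they overlap at 3 h and part from 6 h on.

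SLY1, the F-box gene, was lower in gibberellin than in water at 6 h and at 9 h. In water its signals were 288 (A) and 309 (B) at 3 h, 270 and 261 at 6 h, and 281 and 258 at 9 h. In gibberellin they were 159 and 209 at 3 h, 133 and 134 at 6 h, and 93.3 and 125 at 9 h. Every gibberellin array lay below every water array, with 209 the highest of the former and 258 the lowest of the latter. Of all 15766 tested probe sets, 411 (2.61%) had all 6 gibberellin arrays below all 6 water arrays.

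At 3 h SLY1 stood at 61.1% of its water level, a log2 change of -0.71 ± 0.199 (SE, 2 arrays a group). The 95% interval was -1.15 to -0.27. This change did not pass over all probe sets (limma, unadjusted p = 0.0041, adjusted p = 0.437). At 6 h it stood at 50.3%, a log2 change of -0.99 ± 0.199, and this passed (limma, adjusted p = 0.033). At 9 h it stood at 40.1%, a log2 change of -1.32 ± 0.199 (limma, adjusted p = 0.00295; 95% interval -1.75 to -0.88). The point estimates fall from one time to the next. The effect at 9 h minus that at 3 h was -0.61 ± 0.281 (95% interval -1.22 to 0.01) and did not pass (adjusted p = 0.738), so growth of the effect over time was not shown. With the array letter as a replicate block the 6 h and 9 h calls of SLY1 held and the 3 h change did not pass. As background, 0.228% of all tested probe sets passed at 3 h (36, or 110 with the block), 1.48% at 6 h (233, or 857), 7.47% at 9 h (1178, or 2691) and 0.0127% for the effect at 9 h minus that at 3 h.

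The 6 h result for SLY1 was less firmly held than the 9 h one. Its size hardly moved, but its adjusted p was 0.107 without an intensity trend in the variances, 0.0648 with median-centred arrays and 0.395 on the 8 high-ceiling arrays alone. It passed in 6 of 12 fits that leave out 1 array. It did not pass without water 6 h A (adjusted p = 0.143), water 6 h B (0.196), gibberellin 6 h A (0.18), gibberellin 6 h B (0.16), water 9 h A (0.0569) or water 9 h B (0.0582). The 9 h result passed in all 22 alternatives computed, with adjusted p up to 0.032.

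SPY, the fucosyltransferase gene, passed the test at 9 h, where it was lower in gibberellin. Its water signals were 557 (A) and 564 (B) at 3 h, 562 and 595 at 6 h, and 537 and 643 at 9 h. Its gibberellin signals were 453 and 597 at 3 h, 381 and 402 at 6 h, and 333 and 337 at 9 h. At 3 h the treatments overlapped, because the B array of gibberellin lay above both water arrays and the A array below both. At 6 h and 9 h both gibberellin arrays were below every water array of the series. The share of all tested probe sets that part in this way was not counted. Over the 3 times 5 of 6 gibberellin arrays of SPY lay below every water array, so it is not among the 411 probe sets (2.61%) with all 6 below.

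At 3 h SPY was at 92.8% of water, a log2 change of -0.11 ± 0.18 (limma, adjusted p = 1). At 6 h it was at 67.7%, a log2 change of -0.56 ± 0.18, which did not pass (limma, adjusted p = 0.194) but did with the letter as a replicate block (adjusted p = 0.0383). At 9 h it was at 57.0%, a log2 change of -0.81 ± 0.18 (limma, adjusted p = 0.02; 95% interval -1.20 to -0.42). The effect at 9 h differed from that at 3 h by -0.70 ± 0.254 (unadjusted p = 0.0177, adjusted p = 0.63), which did not pass over all probe sets. The fall of SPY is thus called at 9 h, and at 6 h in the blocked fit.

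The 9 h call for SPY rests on all 4 arrays at that time. Leaving out 1 of them gave adjusted p of 0.0542 (water A), 0.183 (water B), 0.0872 (gibberellin A) and 0.0698 (gibberellin B). Without an intensity trend the adjusted p was 0.0582. The change itself stayed between -0.94 and -0.68 across all 22 alternatives.

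SLY2, the second F-box gene, showed no change past the test, and its intervals are wide. Water gave 22.6 (A) and 25.4 (B) at 3 h, 28.2 and 20.2 at 6 h, and 31.9 and 29.6 at 9 h. Gibberellin gave 24.6 and 25.2 at 3 h, 20.0 and 41.1 at 6 h, and 30.7 and 11.9 at 9 h. The highest and the lowest of the 12 values are both gibberellin B arrays, at 6 h and 9 h. At those times the A and B arrays disagree in the direction or size of the difference: gibberellin over water was 71.0% for A and 204% for B at 6 h, and 96.3% and 40.2% at 9 h.

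The log2 change of SLY2 was 0.06 ± 0.49 at 3 h, 0.27 ± 0.49 at 6 h and -0.68 ± 0.49 at 9 h (limma, adjusted p = 1, 0.907 and 0.471). The 95% interval at 9 h runs from -1.76 to 0.39. It holds the sizes measured for SLY1 and for SPY at 9 h as well as no change, so it separates none of these. The 95% interval averaged over the times, -0.74 to 0.50, holds the averaged change of SPY (-0.49) but not that of SLY1 (-1.01). Without the gibberellin 9 h B array the 9 h change was 0.00070 on the log2 scale, and without the gibberellin 9 h A array it was -1.37. Its value thus depends on which of these arrays is kept.

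**Figure D2:**
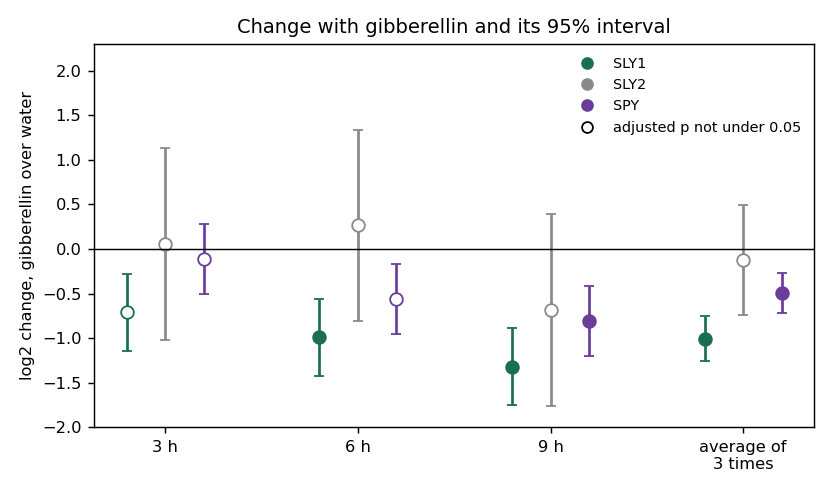
log2 change of gibberellin over water for SLY1, SLY2 and SPY at 3, 6 and 9 h and averaged over the times, with bars for the 95% interval of the linear model; filled points have an adjusted p under 0.05. SLY1 is filled at 6 h (-0.99), 9 h (-1.32) and for the average (-1.01), SPY at 9 h (-0.81) and for the average (-0.49), and SLY2 nowhere.

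Averaged over the 3 times, with 6 arrays a treatment, SLY1 and SPY were lower in gibberellin past the test of the linear model. SLY2 did not pass, and nor did SPY when treatments were exchanged within letter pairs. The 6 water arrays averaged 278 ± 19.2 for SLY1 and the 6 gibberellin arrays 142 ± 38.9 (SD). The averaged log2 change was -1.01 ± 0.115 (SE; limma, adjusted p = 0.000245), or 49.8% of water. Taken by letter and time, gibberellin was below water in 6 of 6 pairs, by -0.56 to -1.59. With treatments exchanged within each time, the two-sided exact permutation p was 0.00926, the smallest that these arrangements can give.

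For SPY the corresponding means were 576 ± 37.6 and 417 ± 98.5 (SD of 6 arrays). The averaged log2 change was -0.49 ± 0.104 (limma, adjusted p = 0.0103), or 71.0% of water, with 5 of 6 pairs lower and a two-sided exact permutation p of 0.0278. Exchanging treatments within pairs of one letter and time gave p = 0.0625 for SPY and 0.0312 for SLY1, the latter the smallest that such exact exchanges can give. On the 8 high-ceiling arrays alone it was -0.43 and did not pass (adjusted p = 0.166). For SLY2 the means were 26.3 ± 4.42 and 25.6 ± 9.89 (SD, n = 6 each). Its averaged log2 change was -0.12 ± 0.283 (adjusted p = 0.843; 95% interval -0.74 to 0.50) and the exact permutation p was 0.731. Of all tested probe sets 11.6% passed for the average, and 2 of the 3 regulators did. The median change of all tested probe sets was -0.01.

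The size of the response was also compared between the regulators, as the change in the log2 ratio of 2 probe sets on the same array, which does not move with the scaling of that array. The log2 ratio of SLY1 to SPY lay between -1.32 and -0.87 on the 6 water arrays and between -1.84 and -1.43 on the 6 gibberellin arrays, without overlap. The share of other pairs of probe sets whose ratios part like this was not counted. SLY1 fell more than SPY by 0.51 on the log2 scale, averaged over the times (0.60 at 3 h, 0.43 at 6 h and 0.51 at 9 h). In every pair of one letter and time the ratio was lower in gibberellin, but the 9 h pairs were unlike. There it went from -0.93 in water to -1.84 in gibberellin on the A arrays, and from -1.32 to -1.43 on the B arrays. A two-sided exact permutation test gave p = 0.00926, or 0.0278 when adjusted (Benjamini-Hochberg) for the 3 pairs of regulators compared. The difference did not pass after adjustment when treatments were exchanged within letter pairs (adjusted exact permutation p = 0.0938). Its raw p there was 0.0312, the smallest that such exchanges can give. Nor did it pass with the arrays of 1 time left out (adjusted p = 0.0833 to 0.167). The lowest raw p possible in those cases is 0.0556. The change of SLY1 lay below that of SLY2 by 0.89 (exact permutation p = 0.0278, adjusted p = 0.0417), between 0.63 and 1.26 at single times. The B pair at 9 h went the other way, with -1.04 for SLY1 and -1.31 for SLY2, and every other pair had SLY1 lower. This second difference did not pass with quantile normalization (0.83, adjusted p = 0.0972), with exchanges within letter pairs (adjusted p = 0.0938) or without the arrays of 1 time (adjusted p = 0.0833 to 0.25). SLY2 and SPY differed by 0.37 (exact permutation p = 0.25, adjusted p = 0.25), with 0.13 to 0.83 at single times.

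Time in water alone moved none of the regulators past the test. From 3 h to 9 h in water the log2 change was -0.15 ± 0.199 for SLY1, 0.36 ± 0.49 for SLY2 and 0.07 ± 0.18 for SPY (limma, adjusted p = 1 for each). In water limma called 0 of 15766 probe sets over this time (0%), and 326 had an unadjusted p under 0.05. In gibberellin the change from 3 h to 9 h was -0.76 ± 0.199 for SLY1 (adjusted p = 0.121), -0.38 ± 0.49 for SLY2 (adjusted p = 0.797) and -0.63 ± 0.18 for SPY (adjusted p = 0.149). None of these passed, where 0.488% of all probe sets did. With the signal ceiling as a block SLY1 (-0.81, adjusted p = 0.0387) and SPY (-0.70, adjusted p = 0.0329) passed this comparison. They also did with the letter as a replicate block (adjusted p = 0.0194 and 0.0191). Many more of the 15766 probe sets passed in those fits: 850 with the ceiling block and 1024 with the letter block, against 77 without a block.

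The order of the 6 group means was the same in SLY1 and SPY for the gibberellin groups and differed in the water groups. For SLY1 it ran, from high to low, water 3 h (299 ± 14.6), water 9 h (270 ± 16.7), water 6 h (265 ± 6.47), then gibberellin 3 h (184 ± 35), 6 h (134 ± 1.2) and 9 h (109 ± 22.5; SD, n = 2). The standard error of a difference between 2 groups was 0.199 on the log2 scale. The gaps among the water groups, 0.15 and 0.02, were smaller than that. The gap from water 6 h to gibberellin 3 h was 0.54, and the next gaps were 0.45 and 0.31.

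For SPY the order was water 9 h (590 ± 74.9), water 6 h (579 ± 23.1), water 3 h (560 ± 5.16), gibberellin 3 h (525 ± 101), gibberellin 6 h (391 ± 14.5) and gibberellin 9 h (335 ± 2.96; SD, n = 2). Here the first 3 gaps, 0.02, 0.05 and 0.11, were all below the standard error of 0.18. The widest gap, 0.41, lay between gibberellin at 3 h and at 6 h. For SLY2 the highest group was water 9 h (30.7 ± 1.68) and the lowest gibberellin 9 h (21.3 ± 13.3), and all 5 gaps between neighbours, 0.01 to 0.32, were below its standard error of 0.49.

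Averaged over the groups, B stood above A by 0.13 in SLY1 and 0.14 in SPY, and the difference was -0.12 in SLY2, on the log2 scale; these sizes lay between the 29.3rd and 34.1st percentile of all tested probe sets. In SLY2 the average joins opposite differences, since B exceeded A in gibberellin at 6 h (41.1 against 20.0) and lay below it at 9 h (11.9 against 30.7). On the low-ceiling pairs (A) SLY1 differed between treatments by -0.85 at 3 h and -1.02 at 6 h, and on the high-ceiling pairs (B) by -0.56 and -0.96. SPY differed by -0.30 (A) and 0.08 (B) at 3 h, in opposite directions, and by -0.56 and -0.57 at 6 h. Letter and ceiling divide the arrays of these times alike, with 1 pair of each kind at a time, so they cannot be told apart. The 3'/5' signal ratio of the GAPDH control, a gauge of RNA integrity, was 0.784 and 0.902 in water at 9 h and 1.03 and 1.17 in gibberellin. That of Actin overlapped, with 1.26 and 1.42 in gibberellin and both water arrays between 1.4 and 1.5. Their part in the 9 h changes was not tested. In whole seeds, fewer cells that express a gene and less of its RNA per cell cannot be told apart.

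SLY1 and SPY varied together over the 12 arrays (Pearson r = 0.922, and 0.96 over the 6 group means). With the group means taken out r was 0.44. SLY2 had r = 0.118 with SLY1 and 0.237 with SPY. Over the group means these were 0.406 and 0.486, and with the group means taken out -0.458 and 0.0015. These values are descriptions over arrays that share groups, and they carry no test.

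**Figure D3:**
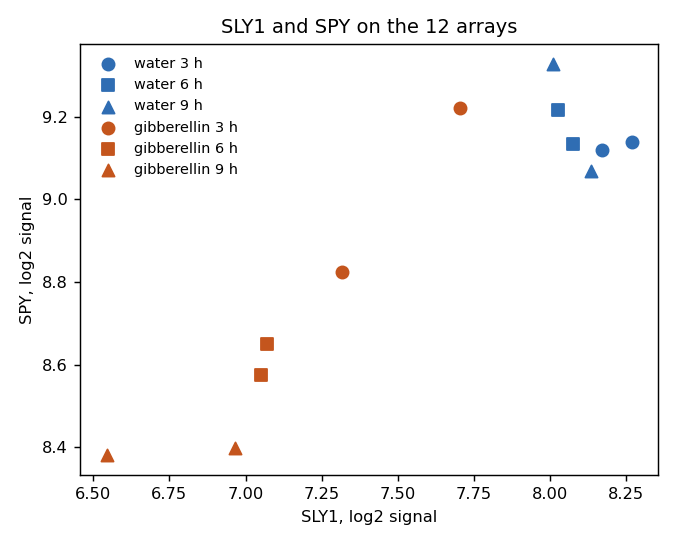
log2 signal of SPY (vertical) against log2 signal of SLY1 (horizontal) on the 12 arrays, coloured by treatment and shaped by hour. The water arrays gather at the upper right, the gibberellin arrays run down to the lower left from 3 h to 9 h, and 1 gibberellin array at 3 h reaches the SPY level of the water arrays.

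Among 8853 other tested probe sets that name 1 gene, those whose log2 signals followed SLY1 most closely over the 12 arrays are given with their changes at 9 h, which come from the same arrays as r and are no separate result. AOP3 (AT4G03050), an oxygenase of glucosinolate synthesis, came first with r = 0.977 and a log2 change at 9 h of -2.74 ± 0.205. XERICO (AT2G04240), a RING-H2 gene that raises abscisic acid when overexpressed, had r = 0.97 and a change of -3.11 ± 0.211. AT3G15290 (r = 0.971), AT3G02910 (0.967) and AT2G29340 (0.967) completed the nearest 5. The most opposite were AT2G22420 (r = -0.979), AT5G08180 (-0.974) and AT2G22900 (-0.972), of which AT2G22420 had a change of 3.61 ± 0.295 at 9 h. In all, 136 genes had r over 0.9 with SLY1, and SPY ranked 69th.

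SPY was followed most closely by AT5G36160 (r = 0.972, 9 h change -2.82 ± 0.259), AT2G38800 (0.971), AT1G15740 (0.97), AT4G38640 (0.969) and SETH2 (AT3G45100; 0.967). The most opposite were YLS5 (AT2G38860; r = -0.984, 9 h change 3.05 ± 0.344), Fes1B (AT3G53800; -0.979) and AT4G32460 (-0.977). For SLY2 no gene exceeded r = 0.882, that of AT3G47080. AT1G04540 (0.863), AT3G23260 (0.854), AT1G12070 (0.848) and AT2G22270 (0.83) came next, and 3 of these 4 (AT1G04540, AT3G23260 and AT1G12070) had lowest signals under 3. AT2G16005 (r = -0.92), SWEET10 (AT5G50790; -0.885) and AT1G25370 (-0.865) were the most opposite to SLY2. These ranks depend on the measure: of the nearest 5 by Pearson, 1 for SLY1 and 0 for SLY2 and SPY were also among the nearest 5 by Spearman. Over the group means the counts were also 1, 0 and 0.

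Other genes of the pathway were taken by locus from lists. The first held receptors, DELLA repressors, DELLA partners and XERICO. The others covered the SCF ligase, other F-box proteins, gibberellin metabolism, and O-linked sugar transfer with co-chaperones. No probe set names the DELLA genes GAI, RGA, RGL1, RGL2 or RGL3 alone. Most members of the lists likewise have no probe set that names them alone and are not analysed here. In the annotation used, 8730 of 22746 probe sets carry no gene name. A gene left out here may thus still have a probe set on the array. That left 8 of 24 genes of the first list, 2 of 16 SCF genes, 4 of 5 in the last list, and 0 tested genes of gibberellin metabolism (23 listed) and of other F-box proteins (15 listed).

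The lists were chosen with earlier results of these data known, so their counts and median changes are descriptions and no test. Of the 8 in the first list, 3 (GID1A, GID1C and XERICO) fell and 1 (SPT) rose at 9 h (limma). Of all tested probe sets 7.47% passed at 9 h, 3.69% lower and 3.79% higher. At 6 h 2 fell (GID1A and XERICO), where 1.48% passed (0.565% lower), and at 3 h 0 passed, where 0.228% did. The median change of the 8 at 9 h was -0.77, where that of all tested probe sets was 0.00. Receptor GID1A (AT3G05120) had signals of 322 ± 33.1 in water and 78.8 ± 4.18 in gibberellin at 9 h (SD, n = 2); its log2 change was -2.03 ± 0.214, which passed (adjusted p = 0.000363). GID1C (AT5G27320) changed by -1.48 ± 0.369 (adjusted p = 0.0328), and GID1B (AT3G63010) had a change of -0.88 ± 0.685 that did not pass (adjusted p = 0.516). XERICO, known as a target downstream of DELLA proteins and neither receptor nor partner, fell from 1369 ± 162 to 159 ± 30.3. SPT (AT4G36930), a helix-loop-helix repressor of germination, had 108 ± 12.8 in water and 276 ± 50.6 in gibberellin, and its rise on the log2 scale was 1.35 ± 0.247 (adjusted p = 0.00829).

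SEC (AT3G04240), the closest Arabidopsis relative of SPY, transfers O-linked N-acetylglucosamine to DELLA proteins; it falls outside the naming rule and was chosen after its values were seen. Its signal was 287 ± 11.9 in water and 184 ± 34.8 in gibberellin at 9 h (SD, n = 2). The log2 change of -0.65 ± 0.185 did not pass (limma, adjusted p = 0.0547), so SPY passed and SEC did not, and the difference between them was not tested. Of the co-chaperones with tetratricopeptide repeats, HOP1 (AT1G12270) rose by 1.68 ± 0.277 (adjusted p = 0.00466) and HOP2 (AT1G62740) by 0.81 ± 0.161 (adjusted p = 0.0122) at 9 h, which made 2 of 4 tested members of that list. In the SCF list 0 of 2 tested genes passed with limma, and 0 had an unadjusted p under 0.05 at 9 h. The share of all tested probe sets at 9 h was 7.47%. CSN5B (AT1G71230), a subunit of the COP9 signalosome that recycles SCF ligases, had a change of 0.30 ± 0.386 and SGT1A (AT4G23570), an SCF cofactor, one of -0.29 ± 0.315 at 9 h.

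**Figure D4:**
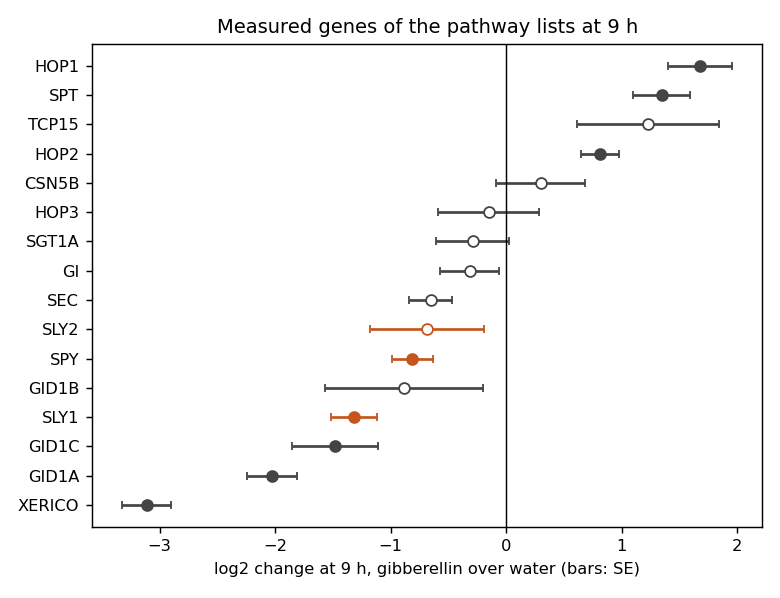
log2 change of gibberellin over water at 9 h for the 3 regulators (orange) and the tested genes of the pathway lists (grey), with bars for the SE; filled points have an adjusted p under 0.05. XERICO (-3.11) and GID1A (-2.03) lie lowest, SLY1 (-1.32) and SPY (-0.81) are filled on the lower side, and HOP1 (1.68) and SPT (1.35) lie highest.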

How the data were processed

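The authors deposited linear intensities. Per the submitters' processing notes these come from MAS5, with no version named. Each array had been scaled by the authors to a 2%-trimmed mean of 100, as the deposited values show, so signals were taken to log2 unchanged. Such scaling hides any change in total RNA. Control probe sets (64) were left out, and probe sets stayed in the tests where at least 2 arrays exceeded the 40th percentile of all log2 signals. Genes were named from the platform annotation, with loci from the RefSeq table for TAIR10.1. With limma 3.58.1 in R 4.3.3, 6 group means were fitted to the 12 arrays (6 residual and 5.53 prior degrees of freedom, variances moderated with an intensity trend). Tests were two-sided, with Benjamini-Hochberg adjustment over 15766 probe sets and 0.05 as threshold. Arrays of one letter deviated together from their group means (r 0.103 to 0.275 between treatments at one time, and over 0.1 in 14 of all 15 pairs of groups). The letters were therefore taken to pair the arrays, a reading settled after both fits had been seen. The fit with the letter as a block was planned as an alternative and is given where it changes a call. Where the block is not named, limma values and shares come from the fit without a letter term, which leaves this pairing out. Permutation tests that exchange treatments within each time leave it out too, and those within letter pairs keep it. The procedure was tested on simulated data. The number of arrays limits the precision. Genes named beside the regulators are, per list, up to 4 with the largest passing change at 9 h (2 where none passes), and the 5 most like and 3 most opposite by Pearson r. The members and lists were chosen with earlier results of these data known. Protein, promoter and probe sequences were not used here.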

Additional observations from a re-analysis of the deposited data

How the results depend on the processing

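SLY1 at 9 h and averaged passed in each of 22 and 21 alternatives. At 6 h SLY1 did not pass with median centring (-1.02), no intensity trend (-0.99), high-ceiling arrays alone (-0.96) or 6 of the 12 single-array omissions (-1.02 to -0.97). SPY at 9 h did not pass without a trend (-0.81) or without any 9 h array (omissions -0.94 to -0.68), nor did its average on high-ceiling arrays (-0.43). With the signal ceiling as a block the 9 h to 3 h change in gibberellin passed for SLY1 (-0.81) and SPY (-0.70), and SPY in water turned (-0.0023). The number of probe sets past the test for this change in gibberellin rose with that block from 77 to 850.

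With the letter as replicate block, SPY at 6 h (-0.56) and the 9 h to 3 h change in gibberellin of SLY1 (-0.76) and SPY (-0.63) passed, and no other call of the linear model on a single regulator changed. The permutation p of averaged SPY rose from 0.0278 to 0.0625 with exact exchanges within letter pairs. The number of probe sets past the test at 9 h went from 1178 to 2691, at 6 h from 233 to 857, at 3 h from 36 to 110 and averaged from 1834 to 3446. For 9 h against 3 h in gibberellin it went from 77 to 1024. Without a block the 9 h count fell to 256 without water 9 h B, the 6 h count to 67 and the averaged count to 560 on high-ceiling arrays, and the 3 h count to 1 on the compared arrays. For 9 h minus 3 h it lay between 1 and 163, and within gibberellin between 2 and 1024.

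Values that did not pass turned sign. On high-ceiling arrays these were SLY2 at 3 h (-0.012) and averaged (0.11) and SPY at 3 h (0.081). Omitting 1 array gave SLY2 -0.028 to 0.14 at 3 h, -0.25 to 0.79 at 6 h (-0.25 without gibberellin B), -1.37 to 0.00070 at 9 h, -0.35 to 0.11 averaged (0.053 and 0.11 without gibberellin 6 h A and 9 h B) and -1.07 to 0.30 within gibberellin. SPY gave -0.31 to 0.090 at 3 h and -0.061 to 0.20 within water.

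Between regulators, exchanging treatments within letter pairs left SLY1 minus SPY (-0.51) and SLY1 minus SLY2 (-0.89) at an adjusted p of 0.0938 each. The raw exact permutation p was 0.0312 for SLY1 minus SPY, the smallest possible, and 0.0625 for SLY1 minus SLY2. SLY1 minus SLY2 did not pass with quantile normalization (-0.83). Leaving out the 3, 6 or 9 h arrays gave -0.47, -0.56 and -0.51 for SLY1 minus SPY and -0.95, -0.70 and -1.01 for SLY1 minus SLY2; with 36 arrangements none passed. The standard error of SLY2, 0.49 at single times, and 2 arrays a group limit what could be detected. Whether its faint signal has a part in that error was not tested.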
